A study of Bos taurus with 17 samples.

Results

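The comparison described here was that of the whole-milk microRNAs of 2-year-old Normande cows with those of 2-year-old Holstein cows. Its members were the 7 libraries of the youngest cows of a series of 17, namely 3 Normande cows (N1 to N3) and 4 Holstein cows (H1 to H4), chosen by breed and age. The other 10 cows, 5 of each breed, were 3 years old. All were healthy cows in their first lactation, and each gave milk at a single morning milking around the second month of lactation, both breeds of an age group being sampled at the same time. Both are dairy breeds, the Holstein selected for milk volume and the Normande for milk rich in fat and protein. RNA was extracted from whole milk without separating fat, cells and whey, so each library mixed the RNA of milk fat globules, vesicles and cells, and each cow gave 1 library.

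MicroRNAs are short RNAs that pair through their seed with messenger RNAs and reduce their stability or translation. Those of milk come mostly from the secretory epithelium of the mammary gland, and partly from leukocytes and other cells shed into milk. They are written here without the bovine prefix "bta", except that entries predicted by the authors from their reads keep the chromosome they were assigned to in their name. Entries with a name beginning "Rum" come from RumimiR, a ruminant microRNA database, and RumimiR and miRBase entries together are called annotated.

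The 3 Normande libraries held 12021549 (N1), 6559942 (N2) and 867772 (N3) reads assigned to microRNAs, and the 4 Holstein libraries 7332714 (H1), 8301261 (H2), 440439 (H3) and 3637802 (H4). One read was thus worth between 0.0611 reads-per-million (RPM) in N1 and 2.21 RPM in H3, and the level that 3 reads stand for was 6.62 RPM in H3. By the study's read counts, H3 and N1 had the lowest share of cleaned reads mapped to the genome among these libraries. Of the 2297 entries of the table, 1857 had reads in these 7 libraries and 583 had reads in all of them. The 330 entries seen only in Normande milk had at most 79 reads in sum, and the 192 seen only in Holstein milk at most 14. The levels below are RPM after scaling with TMM factors, which set the bulk of entries level between libraries and ran from 1.09 to 1.36 in Normande and from 0.745 to 1.03 in Holstein libraries. The lowest were those of H4 (0.745) and H1 (0.755), whose scaled levels thus lie above those with total reads.

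The Holstein library H2 stood among the Normande libraries on the first component, and H1 and H4 stood apart from the rest. On the first principal component of the log2 levels, which held 59.6% of the variance, N1 was at 17.5, N2 at 8.76 and N3 at 3.40, whereas the Holstein libraries were at -19.6 (H1), 5.41 (H2), -0.13 (H3) and -15.4 (H4). H2 therefore lay between N2 and N3, and the library closest to it over the 377 tested entries was N2 (r = 0.973 across entries, which are not independent replicates). H3, the shallowest library, lay apart on the second component. Its correlation was highest with N3 (0.950) and H2 (0.948), against 0.921 with H4 and 0.913 with H1, whereas H1 and H4 correlated at 0.972. Whether the position of H2 came from the cow, the library or its label cannot be told apart here. It was kept as Holstein, as labelled, and the results that turned on it are given with and without it.

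**Figure D1:**
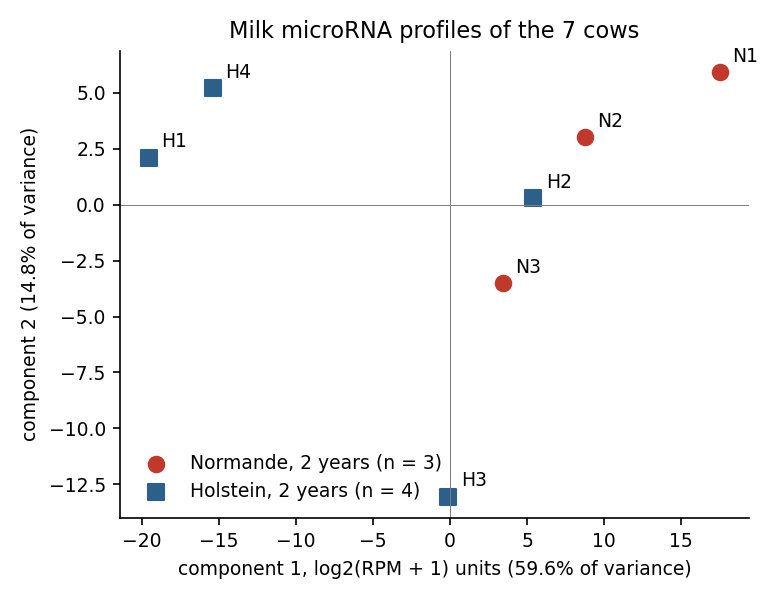
Position of the 7 libraries on the first and second principal components of log2(RPM + 1) over the 377 tested entries (circles, Normande; squares, Holstein; 1 point per cow). H1 and H4 lie far to the left at -19.6 and -15.4, whereas H2, at 5.41, lies among the 3 Normande libraries.

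No microRNA passed the test between the breeds at 2 years. The most abundant microRNAs were common to both breeds, the annotated microRNAs leaned towards lower values in Normande milk and the predicted ones towards higher values, and the spread among the 4 Holstein cows was wide. With edgeR's quasi-likelihood test, 0 of the 377 entries tested (0% called) had an adjusted p below the threshold of 0.05, the smallest adjusted p being 0.231. Without adjustment 74 had a p under 0.05, of which 54 were higher (14.3% of those tested) and 20 lower (5.31%) in Normande milk. Scaled to total reads instead these numbered 72 higher and 2 lower, and with factors from annotated entries alone 64 and 8. Without N1 these numbered 4 higher and 5 lower, and without N2 they were 54 and 3. Voom and limma also called 0 with 112 unadjusted, and DESeq2 called 1, miR-451-5p, with 104 unadjusted. The groups did not overlap for 17 entries with every Normande cow above every Holstein cow (4.51%) and for 27 with every Normande cow below (7.16%). With total reads 12 annotated and 23 predicted entries lay above, and 3 annotated entries lay below. Statements of non-overlap in what follows refer to TMM-normalized levels unless total reads are named. The p-values measured the spread between single cows of a breed.

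Among the microRNAs lower in Normande milk, miR-375-3p, a microRNA of pancreatic islets and secretory epithelia, had the smallest unadjusted p. It was at 7498, 5169 and 7085 RPM in Normande milk, against 23040.4, 16443, 6233 and 23614 RPM in Holstein milk. All Normande cows were thus below H1, H2 and H4, and only H3, the shallowest library, lay in their range. The log2 fold change was -1.40 with a standard error (SE) of 0.43 and an adjusted p of 0.231 in edgeR. In the 3-year-old cows of the same study it averaged 6265 ± 1746 RPM in Normande and 20106 ± 4283 RPM in Holstein milk (SD, n = 5 each), a log2 fold change of -1.68 that passed the test there (edgeR adjusted p = 0.00481).

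The other 4 of the 5 entries with the smallest p among those lower in Normande milk were miR-27b-3p, miR-22-5p, miR-30d-5p and miR-10b-5p. The level of miR-27b-3p, which in mouse and human restrains adipogenic genes such as PPARG, was 19062, 28109 and 32030.0 RPM in Normande and 49717, 42457, 34236 and 56022 RPM in Holstein milk, without overlap (log2 fold change -0.79, SE 0.26). The passenger strand miR-22-5p was at 26.7, 26.9 and 18 RPM in Normande and at 76.0, 42.9, 35.3 and 89.3 RPM in Holstein milk, again without overlap (log2 fold change -1.35, SE 0.45). For miR-30d-5p the levels were 13644, 15795 and 12968 RPM in Normande and 36708, 17538, 19463 and 28931 RPM in Holstein milk (log2 fold change -0.86, SE 0.29). All Normande cows were below all Holstein cows for these 3 microRNAs, with H2 or H3 the nearest Holstein cow each time. With total reads miR-27b-3p still did not overlap, but for miR-30d-5p N1, at 18584 RPM, lay above H2, at 17781 RPM. For miR-22-5p N1 then lay just above H3. The Hox-linked miR-10b-5p was at 12.4, 28.7 and 14.9 RPM in Normande and at 86.8, 31.5, 26.5 and 111 RPM in Holstein milk, and N2 lay above H3 (log2 fold change -1.78, SE 0.62). The adjusted p was 0.231 for each of them (edgeR).

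Among those higher in Normande milk, the smallest unadjusted p was that of miR-451-5p, a microRNA of red blood cells that is matured without Dicer. It was at 32.0, 2.12 and 92.3 RPM in Normande milk, against 3.25, 0.238, 0 and 0.738 RPM in Holstein milk. N1 and N3 were above all Holstein cows and N2 lay below H1, so the fold rested on a pair of cows. The log2 fold change was 4.95 (SE 1.30, edgeR adjusted p = 0.231). It was the one entry called by DESeq2, and it rested on 524, 16 and 87 reads in Normande libraries, against 18, 2, 0 and 2 in Holstein libraries.

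The other 4 on that side were predicted entries with no known function. Among them were chr19_14855_mt-3p, at 149, 85.7 and 47.7 RPM in Normande and 13.4, 40.5, 26.5 and 7.75 RPM in Holstein milk, and chr16_10146_mt-5p, at 90.0, 84.5 and 63.7 RPM in Normande and 10.7, 23.2, 48.6 and 22.9 RPM in Holstein milk. Neither overlapped between breeds, with log2 fold changes of 2.11 (SE 0.61) and 1.67 (SE 0.50). By contrast chr20_18779_mt-5p was at 57.7, 1.99 and 0 RPM in Normande and between 0 and 0.738 RPM in Holstein milk, so that its log2 fold change of 6.21 (SE 1.72) came from N1. Likewise chr29_27849_mt-5p, at 68.1, 17.2 and 3.18 RPM in Normande and at 5.96, 2.26, 2.21 and 5.90 RPM in Holstein milk, was high in N1 and overlapped in N3 (log2 fold change 2.81, SE 0.91).

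**Figure D2:**
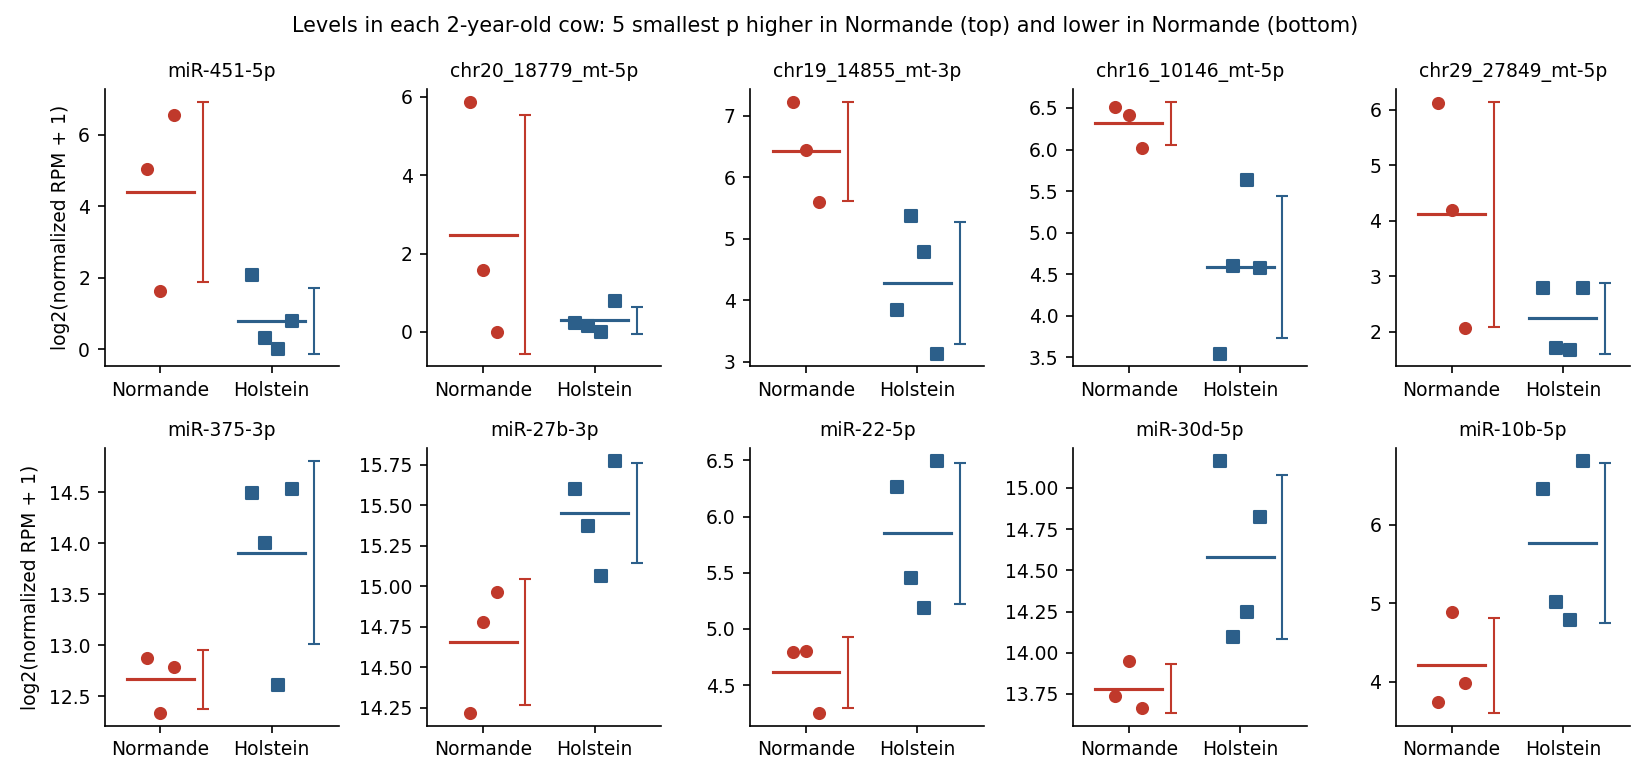
Level of 10 microRNAs in each cow as log2(TMM-normalized RPM + 1), Normande left of Holstein in each panel (points, cows; line, mean; bar, SD); the vertical axes differ between panels and do not start at 0. The top row holds the 5 entries with the smallest p among those higher in Normande milk and the bottom row the 5 among those lower, where miR-375-3p of H3, at 6233 RPM, sits within the Normande range.

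The let-7 family holds back growth genes such as HMGA2 and RAS and accumulates as cells differentiate. None of its 9 tested members passed the test. All 9 had a negative log2 fold change with a median of -0.35, though 5 turned positive with total reads, beside a median of -0.07 over all 377 entries and -0.35 over the 262 annotated ones. For let-7a-5p the levels were 14383, 20152 and 21138 RPM in Normande and 32457, 25223, 21759 and 33946 RPM in Holstein milk, and for let-7c-5p 1309.6, 1778 and 1511 RPM in Normande and 3485, 1809, 2064 and 3362 RPM in Holstein milk. In both every Normande cow was below every Holstein cow, although N2 and H2 nearly met for let-7c-5p, and both had an unadjusted p under 0.05 (log2 fold changes -0.61, SE 0.25, and -0.81, SE 0.33). Over the 262 annotated entries, 27 did not overlap on that side and 18 had an unadjusted p under 0.05 there. With total reads let-7a-5p overlapped, N2 being at 23200 RPM and H3 at 22382 RPM. Likewise let-7c-5p overlapped with total reads, N2 then lying above H2. The other 7 overlapped, with log2 fold changes of -0.71 (let-7b-5p), -0.46 (let-7g-5p), -0.35 (let-7f-5p), -0.33 (let-7i-5p), -0.29 (let-7d-5p), -0.28 (miR-98-5p) and -0.20 (let-7e-5p). Members of this family differ by a few bases, so the way reads were shared between them can move their levels. Scaled to total reads instead, which raised the median of all entries by 0.47, let-7d, let-7e, let-7f, let-7i and miR-98 turned positive and the family's median was 0.06.

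The miR-30 family, which is abundant in epithelia and includes the second most abundant microRNA of this milk, leaned the same way without any member passing the test. All 6 members had a negative log2 fold change (median -0.65; miR-30b-5p turned positive with total reads), from -0.39 for miR-30b-5p to -0.86 for miR-30d-5p. Beside miR-30d-5p, miR-30e-5p did not overlap, at 1951, 2686 and 2857 RPM in Normande and 4773, 3296, 3291 and 4039 RPM in Holstein milk (log2 fold change -0.62, SE 0.28). Of the 262 annotated entries, 27 did not overlap on that side. With total reads miR-30e-5p overlapped, N2 and N3 then lying above H4. The major member miR-30a-5p was at 89511, 119375 and 148381 RPM in Normande and 189785, 164273, 120826 and 261526 RPM in Holstein milk, where H3 lay among the Normande cows (log2 fold change -0.63, SE 0.28). Of the remaining members, miR-30c-5p and miR-30f-5p had log2 fold changes of -0.79 and -0.68. MIR30B and MIR30D are neighbours with 0 genes between them in RefSeq's annotation.

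The clusters of miR-23, miR-27 and miR-24 are transcribed together from a pair of loci and act in vessels and fat cells. All 5 tested members had negative log2 fold changes (median -0.81), and all 5 stayed negative under each of the 3 other scalings. Of the 5, 3 had an unadjusted p under 0.05 (miR-27b-3p, miR-23a-3p and miR-23b-3p), beside 18 of the 262 annotated entries on that side. Without overlap were 3, beside 27 of the 262, namely miR-27b-3p, miR-23a-3p, at 445, 343 and 381 RPM in Normande and 878, 526, 523 and 794 RPM in Holstein milk, and miR-27a-3p, at 1227, 1119.5 and 1002 RPM in Normande and 2617, 1362, 1254 and 1896 RPM in Holstein milk. Their log2 fold changes were -0.81 (SE 0.34) and -0.68 (SE 0.34). With total reads miR-23a-3p and miR-27a-3p overlapped, N1 then lying above H2, H3 and H4 for both. For miR-23b-3p, at 585, 768 and 716 RPM in Normande and 2194, 751, 699.7 and 2293 RPM in Holstein milk, H1 and H4 were far above the rest, and H2 and H3 lay within the Normande range (log2 fold change -1.11, SE 0.49). Such a split, with H1 and H4 high and H2 and H3 beside or below the Normande cows, recurred for let-7b-5p, miR-16a-5p and miR-200a-3p.

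Of the pair miR-103-3p and miR-107-3p, which sit in introns of the pantothenate kinase genes, neither overlapped. Every Normande cow was below every Holstein cow, as for 27 of the 262 annotated entries. For miR-103-3p the levels were 3665, 4257 and 3866 RPM in Normande and 6781, 4982, 6165 and 5895 RPM in Holstein milk, and for miR-107-3p 1226, 1413 and 1261 RPM in Normande and 1703, 1775, 1975 and 1659.6 RPM in Holstein milk. The log2 fold changes were -0.60 (SE 0.24) and -0.45 (SE 0.26). The differentiation-linked miR-26a-5p, at 27010.4, 39063 and 35129.8 RPM in Normande and 84714, 42296, 49135 and 56529.9 RPM in Holstein milk, did not overlap either (log2 fold change -0.79, SE 0.28), and its partner miR-26b-5p had -0.76 (SE 0.36) with overlap. None of the 4 passed the test. With total reads N1, at 4992 RPM, lay above H4, at 4393 RPM, for miR-103-3p. For miR-107-3p every Normande cow then lay above H1 and H4. For miR-26a-5p N2, at 44971 RPM, then lay above H4, at 42127 RPM.

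The study singled out 5 microRNAs as far more abundant in milk than in mammary tissue, a list chosen in part on these libraries and therefore not independent of them. All 5 had negative log2 fold changes (median -0.79), of which 2 turned positive with total reads, miR-375-3p and miR-30d-5p being described above. The level of miR-191-5p was 10560.0, 13268 and 16964 RPM in Normande and 30727, 10833, 17276 and 35329.9 RPM in Holstein milk, H2 lying among the Normande cows (log2 fold change -0.79, SE 0.40). The log2 fold changes of miR-660-5p and miR-423-5p were -0.40 (SE 0.23) and -0.27 (SE 0.25), and these were the pair that turned positive.

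The markers of mammary luminal epithelium were all present in these libraries and took 25.8% to 29.2% of the reads in Normande and 23.2% to 30.7% in Holstein milk. Their 10 log2 fold changes were all negative, with a median of -0.64, beside 186 negative of the 262 annotated entries. With total reads 3 turned positive, namely miR-148a-3p, miR-141-3p and miR-429-3p. Of the 10, 1 (miR-375-3p) had an unadjusted p under 0.05, beside 18 of the 262 on that side. In the miR-200 family, which keeps cells epithelial by repressing ZEB1 and ZEB2, the Holstein spread was wide for some members only. For miR-200a-3p the levels were 2395, 3617 and 1947 RPM in Normande and 8818, 2274, 1728 and 6152 RPM in Holstein milk (log2 fold change -0.84, SE 0.56). For miR-141-3p the Holstein range was the narrower, at 25491.5 to 31752.8 RPM against 16717.4 to 32986 RPM in Normande milk. In bulk milk fewer cells of a type and less RNA per cell cannot be told apart.

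Leukocyte markers overlapped between the breeds at 2 years. Of 8 tested, 5 had a positive and 3 a negative log2 fold change (median 0.29), and none passed the test. The neutrophil microRNA miR-223-3p was at 404, 136 and 465 RPM in Normande and 42.4, 269, 819 and 45.0 RPM in Holstein milk, so the highest and the lowest levels were both Holstein (log2 fold change 0.20, SE 0.96). The pan-leukocyte miR-142-5p, at 2505, 1489 and 5158 RPM in Normande and 789, 1759.9, 3156 and 743 RPM in Holstein milk, likewise overlapped (log2 fold change 0.92, SE 0.58). In the 3-year-old cows these were higher in Normande milk, with log2 fold changes of 2.22 (SE 0.62) for miR-223-3p and 2.07 (SE 0.42) for miR-142-5p (edgeR adjusted p = 0.0494 and 0.0243). The difference between the ages was not past the threshold for either (interaction log2 difference, 2 years minus 3 years, -2.03, SE 1.2, and -1.16, SE 0.75, edgeR adjusted p = 0.991 for both). The NF-kB target miR-146a-5p, which dampens Toll-like receptor signalling, had the smallest p of the list, at 132, 36.1 and 60.5 RPM in Normande and 43.0, 23.6, 17.7 and 27.7 RPM in Holstein milk, with only N2 below H1 (log2 fold change 1.42, SE 0.51, edgeR adjusted p = 0.231). The others were miR-142-3p (log2 fold change 0.39), miR-150-5p of mature lymphocytes (0.43), miR-155-5p of activated immune cells (-0.06), miR-146b-5p (-0.67) and miR-342-3p (-0.48), the sign of miR-155-5p turning under each other scaling and that of miR-342-3p with total reads. The ninth marker, miR-147-3p, was too low to be tested. The summed level of the whole list was 2259 to 6256 RPM in Normande and 1567 to 4335 RPM in Holstein milk.

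The red blood cell list held 3 microRNAs, of which miR-144-3p, the neighbour of miR-451 in the genome, had 0 reads in all 7 libraries. Beside miR-451-5p, miR-486-5p was at 278, 225 and 746 RPM in Normande and 321, 49.9, 110.4 and 103 RPM in Holstein milk (log2 fold change 1.5, SE 0.66, edgeR adjusted p = 0.246). N3 had the highest level of both, and H1 lay above N1 and N2 for miR-486-5p. The part of blood in these values was not tested. Muscle markers were near 0, with 2 of 4 in the table and their sum at or below 2.17 RPM in each library.

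The neighbouring pair miR-221-3p and miR-222-3p, which repress the cell cycle inhibitor CDKN1B, had 1 of its 2 members with an unadjusted p under 0.05 and none past the test. Of the 262 annotated entries, 12 had such a p on the higher side. For miR-222-3p the levels were 277, 31 and 221.7 RPM in Normande and 39.4, 55.5, 75 and 18.8 RPM in Holstein milk, and for miR-221-3p 349, 55 and 359.6 RPM in Normande and 40.1, 109, 205 and 46.8 RPM in Holstein milk. N1 and N3 were above all Holstein cows for both, and N2 was within the Holstein range. The log2 fold changes were 1.93 (SE 0.70) and 1.37 (SE 0.73), against 1.81 and 1.90 in the 3-year-old cows, where both passed the test (edgeR adjusted p = 0.0494 and 0.0348).

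The other lists held no entry past the test. Of the stromal, vessel and myoepithelial list 4 of 10 members were tested, 1 with a positive and 3 with a negative log2 fold change, and beside miR-10b-5p (above) and miR-10a-5p (0.59, SE 0.77) miR-143-3p, a smooth muscle microRNA, had a log2 fold change of -0.80 (SE 0.45) and the basal cell microRNA miR-205-5p -1.15 (SE 0.54). The summed level of that list was 225 to 487 RPM in Normande and 404 to 691 RPM in Holstein milk. All 9 tested members of the miR-17 clusters were negative (median -0.47), beside 186 of the 262 annotated entries, and 2 did not overlap (miR-17-5p and miR-19b-3p), beside 27 of the 262, but 5 turned positive with total reads. With total reads miR-17-5p and miR-19b-3p overlapped too. The families of miR-15 and miR-16, of miR-29 and of miR-148 and miR-152 had 4, 3 and 3 tested members, all negative with medians of -0.45, -0.36 and -0.32, although with total reads 2 members of the first and all members of the others turned positive. The 2 tested members of the imprinted cluster of chromosome 21, miR-127-3p and miR-411a-5p, had log2 fold changes of -0.01 (SE 0.62) and -0.18 (SE 0.61), and both turned positive with total reads. Of the X-linked cluster of miR-532 all 6 tested members were negative (median -0.46, 3 turning positive with total reads), of the families of miR-10, miR-99, miR-100 and miR-125 5 of 6 (median -0.39, 3 of them turning), and of the miR-181 family 2 of 3 (median -0.32, 1 turning). Of the 4 tested entries that overlap other non-coding RNAs (median -0.03), miR-1246-5p was at 167, 159 and 216 RPM in Normande milk, against 1428 RPM in H3 and 82.6 to 281 RPM in the other Holstein milks.

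**Figure D3:**
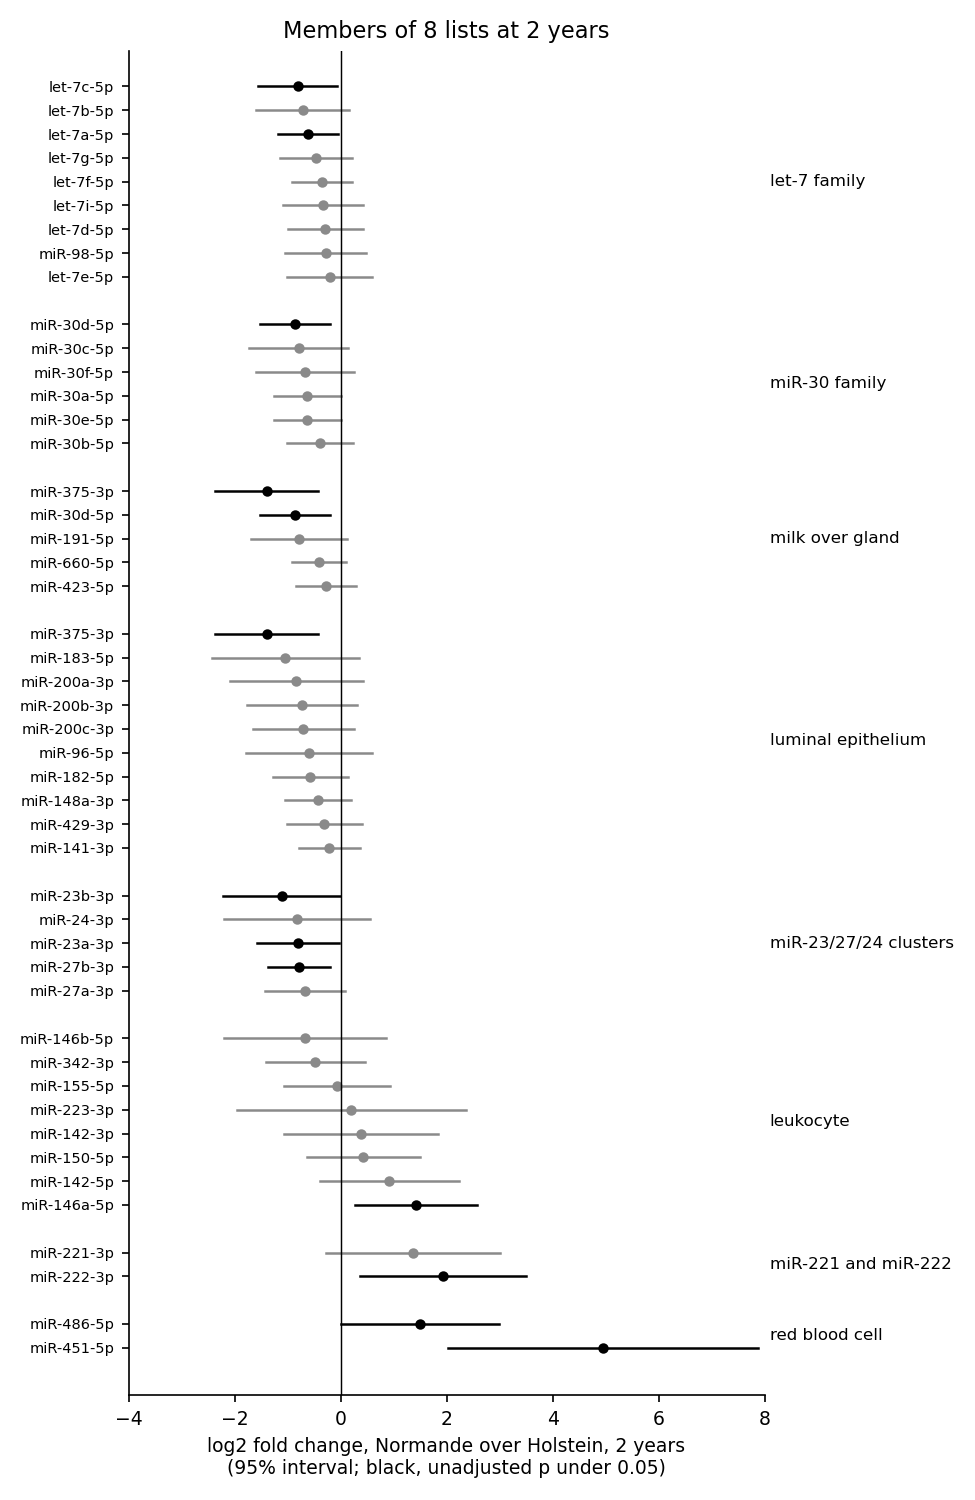
Log2 fold change (Normande over Holstein) at 2 years of the members of 8 lists with its 95% interval from edgeR (black, unadjusted p under 0.05; grey, the rest; 0 marked by the vertical line). The points of the 5 lists at the top lie left of 0, from -1.40 (miR-375-3p) to -0.20 (let-7e-5p), whereas the leukocyte list spans both sides and the list of miR-221 and miR-222 and the red blood cell list lie to the right. With total reads 5 let-7, 1 miR-30, 2 milk-over-gland and 3 luminal members move right of 0.

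The most abundant microRNAs were largely shared by the breeds. In all 7 libraries miR-148a-3p, a microRNA that targets the DNA methyltransferase DNMT1, ranked first and miR-30a-5p second. Of the 10 highest, miR-26a-5p, miR-27b-3p and miR-186-5p had an unadjusted p under 0.05, all lower in Normande milk (log2 fold change of miR-186-5p -0.71, SE 0.31), beside 20 of all 377 entries on that side. For miR-148a-3p the levels were 154539, 190824 and 217943 RPM in Normande and 318707, 169107, 185768 and 332925 RPM in Holstein milk, so that H1 and H4 were above the rest (log2 fold change -0.42, SE 0.28). With total reads the gap was small, H1 being at 240746 RPM, H4 at 248100 RPM and N3 at 236748 RPM. For miR-21-5p, which many dividing and inflamed tissues express, all Normande cows were below all Holstein cows, at 21751, 22937 and 30812 RPM in Normande and 34087, 32340.2, 33208 and 35521 RPM in Holstein milk (log2 fold change -0.43, SE 0.21), although the difference was 0.00 with total reads. The log2 fold changes of miR-22-3p, miR-181a-5p and miR-141-3p were -0.28 (SE 0.19), -0.32 (SE 0.23) and -0.21 (SE 0.26), and all 3 turned positive with total reads, as did that of miR-148a-3p. Among predicted entries chr10_2883_mt-5p was at 23783, 25236 and 28789 RPM in Normande and 40786, 17789.6, 79769.6 and 36326 RPM in Holstein milk, the Holstein cows spanning a wider range than the Normande ones.

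The 17 entries above 10000 RPM took 73.1%, 77.3% and 80.6% of the reads in Normande and 82.1%, 79.7%, 79.7% and 82.0% in Holstein milk. N1 and N2 were below all Holstein cows and N3 within their range, and an exact permutation test over the 35 assignments of the 7 cows gave a two-sided p of 0.114 (adjusted 0.171 over 3 such values; the smallest p this design can reach is 0.0286). At the depth of the shallowest library, 797, 744 and 737 entries were detected in Normande and 661, 733, 728 and 647 in Holstein milk, without overlap between the breeds (exact permutation p = 0.114, adjusted 0.171). Predicted entries took 13.9%, 9.24% and 7.70% of the reads in Normande and 4.71%, 10.1%, 13% and 5.81% in Holstein milk (exact permutation p = 0.486, adjusted 0.486). Without the 2 most abundant predicted entries these shares were 8.35%, 5.44% and 3.71% in Normande and 1.46%, 4.44%, 4.01% and 2.84% in Holstein milk.

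The predicted entries were higher in Normande milk more often than the annotated ones, as a description of the fold changes. Of the 115 predicted entries tested, 100 had a positive log2 fold change (median 1.13), and 44 had an unadjusted p under 0.05. Of the 262 annotated entries, 186 had a negative log2 fold change and 30 an unadjusted p under 0.05. The 17 entries with every Normande cow above every Holstein cow comprised 16 predicted entries and Rum-bta-00054, at 626, 353 and 312 RPM in Normande and 119, 302, 216 and 295 RPM in Holstein milk, whereas the 27 below were all annotated. Among these 16, chr10_2962_mt-3p was at 1874, 1321 and 1235 RPM in Normande and 136, 904, 581 and 191 RPM in Holstein milk, and chr12_5832_mt-3p at 240.0, 198 and 136 RPM in Normande and 29.2, 125, 61.8 and 69.0 RPM in Holstein milk, H2 being the nearest Holstein cow in both. The pair chr2_17130_mt-5p and chr29_27330_mt-5p had counts within 5% of each other in every library, so they may hold the same reads.

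The predicted entries peaked in the deepest library of each breed, N1 for 95 of the 115 and H2 for 78 of the 115, whereas 65 and 61 of the 262 annotated entries did. H1, nearly as deep as H2, was the highest Holstein library for 1 of the 115, against 23 for H3, the shallowest, and 13 for H4. The part of depth, of mapped share, of the count filter and of single libraries in the result was not tested. With total reads the median log2 fold change was 1.53 for predicted and 0.12 for annotated entries, and the non-overlapping entries numbered 35 above (23 of them predicted) and 3 below. The median of the annotated microRNAs thus turned positive with total reads, although not with RLE factors (-0.28) or factors from annotated entries (-0.12), and that of the predicted ones was above 0 under all 4 scalings.

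**Figure D4:**
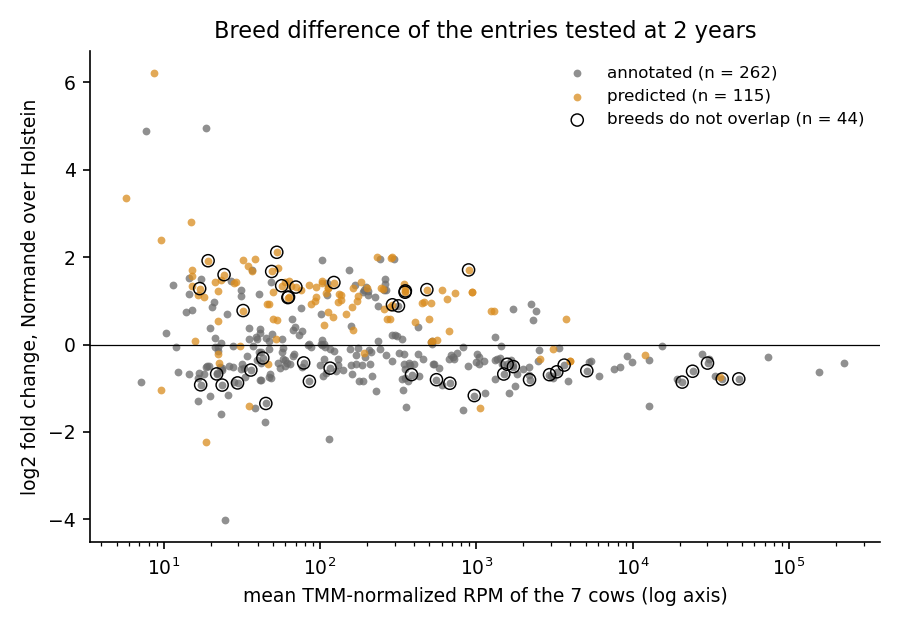
Log2 fold change (Normande over Holstein) of each of the 377 tested entries at 2 years against its mean level (TMM-normalized RPM, log axis), in grey for annotated and orange for predicted entries, with rings around the 44 whose breeds do not overlap. Orange points lie mostly above 0 (median 1.13) and grey points mostly below (median -0.35, which turned to 0.12 with total reads).

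Leaving out H2 changed the outcome of the test. Without it 72 of 361 entries passed, 63 of them higher (17.5% of those tested) and 9 lower (2.49%) in Normande milk, whereas leaving out any other single cow gave 0. H2 lay among the Normande libraries on the first component, so leaving it out widens the gap between the breeds in the same data. These calls are therefore no independent support for a breed difference. H2 reached or passed the nearest Normande cow for 52 of the 63 and for 5 of the 9. The 63 comprised 47 predicted and 16 annotated entries, and the 9 comprised 2 predicted and 7 annotated entries. Those lower without H2 included miR-375-3p (log2 fold change -1.45, adjusted p = 0.0474), miR-191-5p (-1.07, adjusted p = 0.0474), miR-30d-5p (-1.04, adjusted p = 0.0484) and miR-10b-5p (-2.07, adjusted p = 0.0433, all by edgeR). Those higher included miR-451-5p (4.33, adjusted p = 0.0433) and chr19_14855_mt-3p (2.74, adjusted p = 0.0253). Also without H2, voom and limma called 96 and DESeq2 107, but edgeR on total reads called 0 (124 unadjusted).

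The 3-year-old cows, none of which is among the 7, mostly showed the same directions. There edgeR called 35 entries higher and 10 lower in Normande milk of 454 tested, and 98 (21.6%) and 61 (13.4%) had an unadjusted p under 0.05 on either side. Of the 367 entries tested at both ages, 301 (82.0%) had the same sign (r = 0.733 across entries, which share libraries within each age). Among the 10 most abundant, all negative at 2 years, miR-30a-5p (0.15), miR-21-5p (0.08) and miR-141-3p (0.52) were positive at 3 years and the others negative. The log2 fold change of miR-27b-3p was -0.79 at 2 years and -0.19 at 3 years. Of the 74 entries with an unadjusted p under 0.05 at 2 years, 67 were tested at 3 years. Of these, 66 had the same sign, 50 had an unadjusted p under 0.05 there as well, and 20 passed the test there. The exception in sign among the 67 was miR-486-5p, with a log2 fold change of 1.5 at 2 years and -0.81 at 3 years. The rest of the 74 were not tested among 3-year-old cows alone. Of those named here, chr20_18779_mt-5p (-0.14) and Rum-bta-02977 (-1.25) were negative at 3 years in the fit over 17 libraries. There miR-451-5p (2.00) and chr29_27849_mt-5p (0.56) were positive. Without overlap at 2 years, 17 of 17 entries above and 25 of 27 below had the same sign. Of these, 15 of the 17 and 7 of the 27 also had an unadjusted p under 0.05 on the same side at 3 years, and 11 and 1 passed the test there, beside 128 (34.9%) and 39 of all 367. The median SE of a log2 fold change was 0.47 at 2 years and 0.36 at 3 years.

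**Figure D5:**
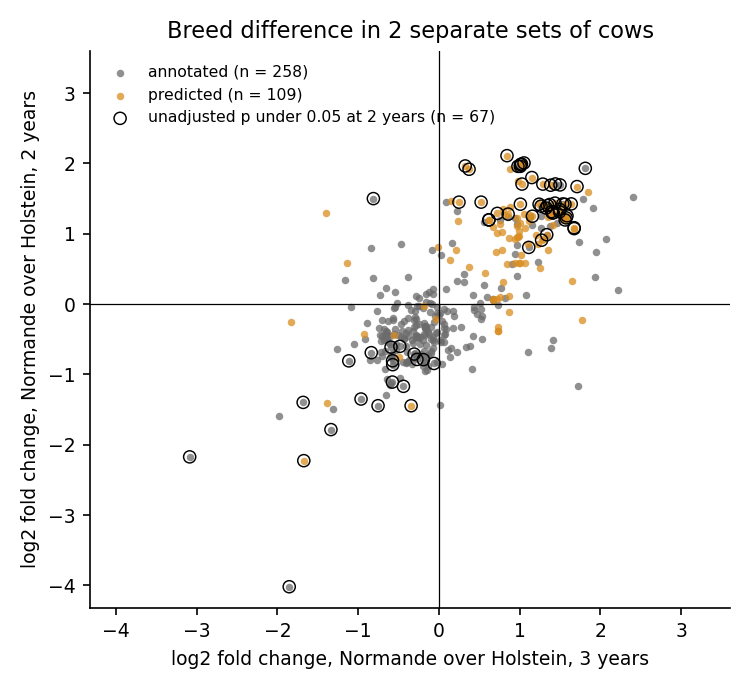
Log2 fold change (Normande over Holstein) at 2 years, vertical axis, against that at 3 years, horizontal axis, for the 367 entries tested at both ages in separate cows (grey, annotated; orange, predicted; rings, unadjusted p under 0.05 at 2 years). All ringed points but miR-486-5p lie in the quadrants where the ages share a sign.

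No entry passed the test of a difference in breed contrast between the ages. Of 454 entries in the fit over all 17 libraries, 0 passed the test of the interaction (0% called, smallest adjusted p 0.991), 15 had an unadjusted p under 0.05, and voom and limma and DESeq2 called 0 as well with 15 and 20 unadjusted. The smallest p belonged to chr20_18779_mt-5p, for which the 2-year difference exceeded the 3-year one by 6.43 (SE 2.10) and which was high in N1 alone. It was followed by miR-486-5p, by 2.28 (SE 0.79), miR-11978-5p, by 1.47 (SE 0.52), Rum-bta-02977, by 6.13 (SE 2.32), and miR-1307-3p, by 0.84 (SE 0.34). At 2 years miR-11978-5p was at 30.4, 65.3 and 45.6 RPM in Normande and 46.6, 43.1, 26.5 and 30.2 RPM in Holstein milk, with overlap. Rum-bta-02977 was at 12.9, 0 and 39.3 RPM in Normande and was seen in H1 alone, at 1.62 RPM, among Holstein cows.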

How the data were processed

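Small RNA libraries of whole milk were sequenced for 17 cows, of which the 7 of 2 years were compared by breed. The authors trimmed adapters and kept reads of 17 to 28 nt with Cutadapt, assigned them with miRDeep2 (genome bosTau8, miRBase release 22) and deposited raw counts per mature microRNA, with no normalization. Redundant matures were assigned by the authors first to known bovine, then to other species' and last to predicted entries. Which sequencing lane held which library is not given in the sources used here. Breeds come from the labels and ages from the study's table. Columns without a sample numbered 0. Names occurring repeatedly (14) were numbered as copies.

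Counts were tested with edgeR 4.0.16 (quasi-likelihood, TMM factors, breed alone, two-sided, Benjamini-Hochberg over all entries tested, threshold 0.05), in R 4.3.3. Only entries with a TMM-normalized count above 168 in at least 1 library were tested (at the mean effective library size), after the study's own threshold. An entry high in a single library could thus enter the test through that library alone. Limma 3.58.1, DESeq2 1.42.0, other scalings, filters and left-out libraries were alternatives. The interaction was fitted over 4 groups of 17 libraries. The fitting code was tested on simulated data. No pair of libraries agreed within sampling noise. Replicate numbers did not pair cows: the deviations of same-numbered cows correlated at -0.42, 0.04 and -0.03.

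Named entries were the 5 with the smallest p in each direction (no entry passed), the members of 6 lists in full and examples of 15 others, the 10 most abundant, and the 5 with the smallest interaction p. Others were chosen after their values were seen: the non-overlapping predicted entries, Rum-bta-00054, and those called without H2. Members and lists were chosen with earlier results of these data known. No mature sequences are printed.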

Additional observations from a re-analysis of the deposited data

Results flagged for a closer look

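Over 79 named entries and 3 single values, 5 of the 82 groups of 4 Holstein cows had 1 cow set apart from the other 3 by more than a Dixon gap test allows at its 95% limit, and about 1 group in 20 is set apart by chance. For let-7i-5p H1, at 1294.82 RPM, lay below the other Holstein cows. H3, the library with the fewest reads, lay apart for miR-150-5p, a microRNA of mature lymphocytes, at 46.3522 RPM, for miR-1246-5p at 1428.09 RPM and for miR-2904-5p at 158.922 RPM. For Rum-bta-02977 H1 was at 1.62484 RPM and the other Holstein cows at 0.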

How the results depend on the processing

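Without a filter 27 of 1857 entries passed (20 higher, 7 lower; 266 unadjusted), and DESeq2 called 1. Without H2 the calls numbered 72 (edgeR), 96 (voom and limma), 107 (DESeq2) and 85 (fit over 17 libraries), the last 3 chosen after seeing the data. Leaving out each cow in turn gave 0 to 72 calls and 9 (without N1) to 135 (without H2) entries with an unadjusted p under 0.05, against 74 with all 7, and 34 without H1. That number was 112 with voom and limma, 131 with quality weights, 123 in the fit over 17 libraries, 18 without H3 and N1 and 4 without N1 and N2, where the lone Normande library is assumed to vary like the Holstein ones. Without H2 it was 157 with DESeq2, 145 with voom and limma, 169 in the fit over 17 libraries and 124 with total reads, the last also chosen after seeing the data. The replicate block gave 0 calls and 24 unadjusted. Scaling moved the share of these entries that were higher in Normande from 73.0% to 97.3% with total reads, 88.9% with factors from annotated entries and 79.5% with RLE factors. All other counts of calls, and those of the interaction, stayed at 0. Of 79 named entries 45 kept their sign in every alternative and 25 were called in at least 1. The cause of these differences was not tested. Depth limits entries below 6.62 RPM in H3.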
